A study of Rattus norvegicus with 3 samples.

Results

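The alpha-catenins and the Lrrtm genes nested inside them were followed across the nuclei of the rat nucleus accumbens. The genes were selected by name, as the rows whose symbol is Ctnna1, Ctnna2, Ctnna3, Lrrtm1, Lrrtm2, Lrrtm3 or Lrrtm4, and they were chosen because Ctnna3 was higher in the high anxiety library in several nucleus classes. That contrast of Ctnna3 is therefore given as a description and supports nothing here. All 7 were found among the 23098 features of the tables, with Lrrtm1 spelled LRRTM1 there. The identifiers are ENSRNOG00000005796 for Ctnna1, ENSRNOG00000006003 for Ctnna2, ENSRNOG00000000373 for Ctnna3, ENSRNOG00000006093 for Lrrtm1, ENSRNOG00000047085 for Lrrtm2, ENSRNOG00000026466 for Lrrtm3 and ENSRNOG00000021938 for Lrrtm4.

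The study made 1 single-nucleus RNA library from each of 3 groups of outbred Wistar rats at 16 weeks of age. The groups were high anxiety rats given urolithin A for 2 months, untreated high anxiety rats, and untreated low anxiety rats. Urolithin A is a gut microbial metabolite of plant ellagitannins known for promoting mitophagy. Each library pooled nucleus accumbens punches from 5 hemispheres (the number of rats behind them is not given), so every difference below is between pools and no replicate error can be given.

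Alpha-catenins connect the cadherin and beta-catenin complex of cell junctions to actin. Ctnna1 encodes alpha-E-catenin, the broadly expressed epithelial form. Ctnna2 encodes alpha-N-catenin, the neuronal form, which in mouse stabilises dendritic spines. Ctnna3 encodes alpha-T-catenin, best known from the junctions of heart muscle. The Lrrtm genes encode leucine-rich repeat proteins of the postsynaptic membrane that bind presynaptic neurexins and, for Lrrtm4, heparan sulfate proteoglycans. In the rat RefSeq annotation of build GRCr8, 3 of the Lrrtm genes lie within an alpha-catenin gene: Lrrtm2 within Ctnna1, Lrrtm1 within Ctnna2 and Lrrtm3 within Ctnna3. Lrrtm4 lies on the chromosome of Ctnna2 but outside it.

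A host and its nested gene have start sites of their own. RefSeq windows of 300 bases around the start (250 before and 50 after) were at hand for 6 of the 7 genes, all but Ctnna1. The windows of 2 host and nested pairs are printed because the results below turn on how far a host and its guest go together. They are in build GRCr8, 5′ to 3′ on the strand of the gene, with each CG dinucleotide in capitals. Within each pair the host is on the minus strand and the nested gene on the plus strand.
Ctnna3, chr20:25137949-25138248, minus strand: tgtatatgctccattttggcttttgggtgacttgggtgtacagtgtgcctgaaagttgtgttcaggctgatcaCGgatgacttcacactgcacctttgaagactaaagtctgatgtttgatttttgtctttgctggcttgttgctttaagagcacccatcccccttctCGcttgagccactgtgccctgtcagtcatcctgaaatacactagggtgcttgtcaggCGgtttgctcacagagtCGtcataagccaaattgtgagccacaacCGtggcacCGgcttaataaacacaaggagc
Lrrtm3, chr20:24514054-24514353, plus strand: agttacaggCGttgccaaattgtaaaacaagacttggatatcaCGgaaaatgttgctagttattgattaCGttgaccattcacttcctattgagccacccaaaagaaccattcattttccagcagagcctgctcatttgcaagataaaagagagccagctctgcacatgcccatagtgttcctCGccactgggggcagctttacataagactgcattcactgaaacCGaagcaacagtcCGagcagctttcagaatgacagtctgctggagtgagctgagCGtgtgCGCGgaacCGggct
Ctnna2, chr4:112001302-112001601, minus strand: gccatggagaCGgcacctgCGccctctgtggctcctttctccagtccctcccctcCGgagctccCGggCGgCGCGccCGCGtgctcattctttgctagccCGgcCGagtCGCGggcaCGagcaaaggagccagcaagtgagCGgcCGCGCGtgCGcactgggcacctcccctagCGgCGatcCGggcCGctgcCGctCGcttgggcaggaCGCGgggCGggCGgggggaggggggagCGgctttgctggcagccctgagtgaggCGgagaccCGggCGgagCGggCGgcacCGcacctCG
Lrrtm1, chr4:111259609-111259908, plus strand: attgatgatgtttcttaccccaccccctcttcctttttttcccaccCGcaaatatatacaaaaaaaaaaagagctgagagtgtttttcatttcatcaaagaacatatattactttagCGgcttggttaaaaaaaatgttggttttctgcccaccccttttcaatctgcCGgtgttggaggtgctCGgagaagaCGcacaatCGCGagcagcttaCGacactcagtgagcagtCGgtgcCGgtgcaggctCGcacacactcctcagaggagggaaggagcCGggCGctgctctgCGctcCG

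The Ctnna2 window held 37 CG dinucleotides and 75.0% G and C, and only 4.78% of all 33469 windows of that length held as many. The Ctnna3 window was poorer, with 6 CG and 48.0% G and C, close to the median window, which held 7 CG and 51.7% G and C. Lrrtm1 had 15 CG, Lrrtm3 had 10, Lrrtm4 had 7 and Lrrtm2 had 6.

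The tables held counts of unique molecular identifiers (UMIs, 1 per captured transcript): 19162530 for urolithin A, 22095390 for high anxiety and 16728049 for low anxiety, over 3739, 4066 and 3619 barcodes in that order. Of these barcodes 3421, 3694 and 3379 were used. Libraries shared 4 to 6 barcodes pairwise. Nuclei were clustered without the 7 genes and named by marker genes, which gave 8 classes with at least 100 nuclei in every library. They were D1 medium spiny neurons (led by Ebf1, Reln and Pdyn), D2 medium spiny neurons (Adora2a, Drd2, Gpr6), neurons called eccentric from their markers, an unnamed cluster led by Nmb, Rasgrf2 and Htr4, astrocytes, oligodendrocyte precursors, oligodendrocytes and microglia. Nucleus accumbens output neurons are medium spiny neurons, which carry either D1 or D2 dopamine receptors for the most part. The eccentric class joined 3 clusters with at least 3 eccentric markers each: one led by genes such as Mdfic, Casz1 and Tac3, one by Chst9 and Col14a1, and one by Exph5 and Stac. Against other nuclei their mean log2 fold of spiny neuron markers was 0.42, -1.43 and -0.52 in that order, so those led by Chst9 and by Exph5 are not called medium spiny. The cluster led by Exph5 was mostly of low anxiety nuclei, with 17 in urolithin A, 13 in high anxiety and 120 in low anxiety. Levels are CPM, a gene's UMIs scaled to the summed UMIs of its class in that library, and intervals are 95% intervals that cover counting error only.

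Ctnna3 was at its highest in oligodendrocytes, the myelin-forming cells, in all 3 libraries. There it stood at 2069 CPM in urolithin A, 2260 CPM in high anxiety and 2108 CPM in low anxiety. In microglia, the resident macrophages, it was at or near background, with 4, 5 and 1 UMIs in that order. In astrocytes it had 21, 7 and 18 UMIs. The neuron classes and oligodendrocyte precursors lay between these extremes.

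In the 4 neuron classes and in precursors, Ctnna3 was highest in high anxiety, lower in urolithin A and lowest in low anxiety, in each of 5 classes. D1 neurons had 380 CPM in urolithin A, 465 CPM in high anxiety and 181 CPM in low anxiety. D2 neurons had 352 CPM, 465 CPM and 168 CPM in the same order. The Nmb-Htr4 cluster had 462 CPM in urolithin A, 552 CPM in high anxiety and 177 CPM in low anxiety. In D1 neurons the intervals ran from 442 to 490 CPM in high anxiety and from 166 to 197 CPM in low anxiety.
Eccentric neurons had 204 CPM in urolithin A, 327 CPM in high anxiety and 96.5 CPM in low anxiety. Oligodendrocyte precursors had 237 CPM, 328 CPM and 109 CPM in that order, from 93, 140 and 41 UMIs.

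**Figure D1:**
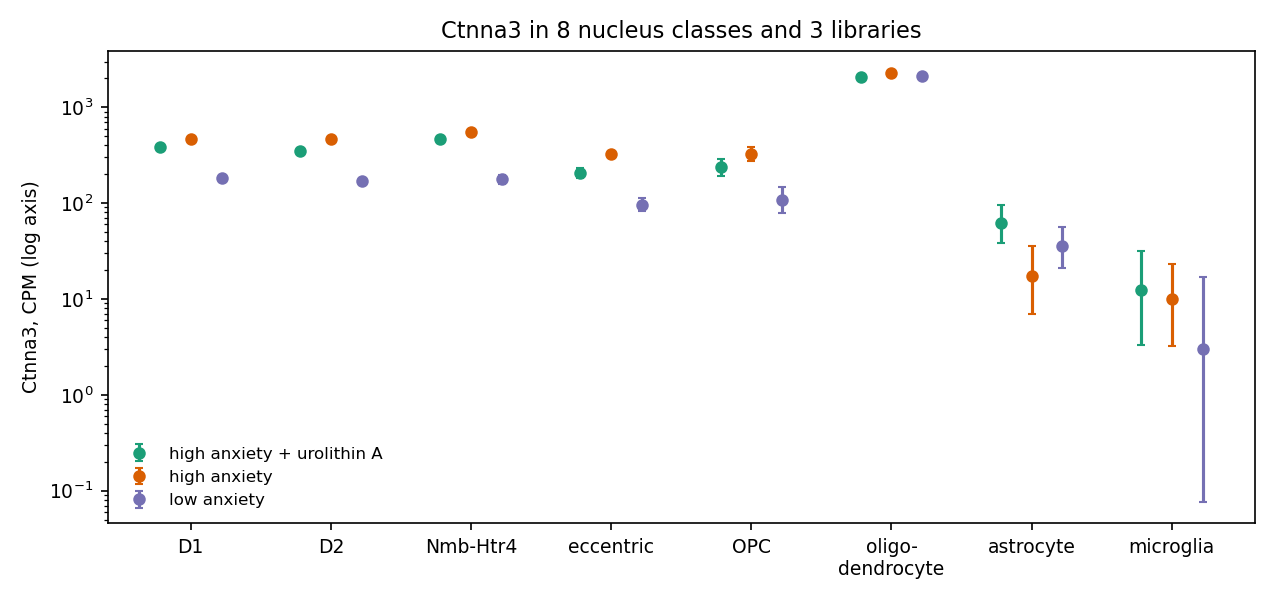
Ctnna3 CPM (log axis) in 8 nucleus classes, with urolithin A on the left, high anxiety in the middle and low anxiety on the right of each class; OPC are oligodendrocyte precursors, points are 1 library each and bars are 95% Poisson intervals for counting error. In the first 5 classes low anxiety is the lowest point, while in oligodendrocytes the 3 points lie close together near 2000 CPM, from 2069 in urolithin A and 2260 in high anxiety to 2108 in low anxiety.

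As log2 ratios of high anxiety over low anxiety, these Ctnna3 levels gave 1.36 (1.22 to 1.51) in D1 neurons, 1.47 (1.33 to 1.61) in D2 neurons and 1.65 (1.47 to 1.83) in the Nmb-Htr4 cluster. Eccentric neurons gave 1.76 (1.52 to 2.01) and precursors 1.59 (1.08 to 2.13). Ctnna3 ranked 5 of 5757 measured genes in D1 neurons by this ratio, 5 of 6266 in D2 neurons, 1 of 4471 in the Nmb-Htr4 cluster, 2 of 4531 in eccentric neurons and 1 of 811 in precursors. Since this ratio chose the gene, the ranks describe the choice. In oligodendrocytes the ratio was 0.10 (0.04 to 0.17), rank 1724 of 4600, so the class with the most Ctnna3 showed the least difference between these libraries. The clusters inside a class were alike: 1.45 and 1.65 in the D2 clusters, 1.59, 1.64 and 2.11 in the eccentric clusters, and from 0.01 to 0.27 in the 4 oligodendrocyte clusters.

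The contrast of urolithin A over high anxiety shares the high anxiety library with the contrast above, so the signs of the pair are not independent. Ctnna3 ratios were -0.29 (-0.40 to -0.18) in D1 neurons, -0.40 (-0.51 to -0.30) in D2 neurons and -0.26 (-0.39 to -0.12) in the Nmb-Htr4 cluster. In eccentric neurons the ratio was -0.68 (-0.89 to -0.48), in precursors -0.47 (-0.87 to -0.08) and in oligodendrocytes -0.13 (-0.18 to -0.07). The eccentric value passed 1.5-fold, and it was -0.53, within 1.5-fold, when doublets were kept and clustering repeated. Urolithin A set over low anxiety gave 1.07 (0.93 to 1.22) in D1 neurons and 1.07 (0.92 to 1.21) in D2 neurons. The same contrast gave 1.39 (1.19 to 1.58) in the Nmb-Htr4 cluster and 1.08 (0.80 to 1.36) in eccentric neurons. It shares the low anxiety library with the contrast that chose Ctnna3, so these signs are not independent of that choice either.

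The neuronal Ctnna3 UMIs were spread over many nuclei. In D1 neurons the top 1% of nuclei held 3.31% of them in urolithin A, 3.79% in high anxiety and 4.36% in low anxiety, and no nucleus had more than 16. After each nucleus was thinned to 1500 UMIs, a Ctnna3 UMI was seen in 41.6% (37.4 to 45.8) of D1 nuclei in urolithin A, 50.4% (45.4 to 55.3) in high anxiety and 21.1% (17.6 to 25.0) in low anxiety, by exact binomial intervals. The unthinned shares were 87.2%, 88.9% and 58.4% in that order. In D2 neurons the thinned shares were 43.8%, 50.8% and 21.2%, and in eccentric neurons 22.8%, 36.4% and 11.4%. Microglia, where the gene was near background, had thinned shares of 1.47% in urolithin A, 1.5% in high anxiety and 0 of 113 nuclei in low anxiety, which allows a share of up to 2.65%. Median depths in microglia were 1879 UMIs in urolithin A, 1889 in high anxiety and 1599 in low anxiety, against 6516, 7125.5 and 5691 in D1 neurons. Thinning left out 3 to 6 D1 nuclei and 33 to 90 microglia a library.

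Because oligodendrocytes carry so much Ctnna3, their markers were counted in the same neurons. A set of 9 oligodendrocyte markers (Mbp, Mog and others) summed to 97.9 CPM in D1 neurons of urolithin A, 97.7 CPM of high anxiety and 68.2 CPM of low anxiety, against 26660, 26093 and 24407 CPM in oligodendrocytes. In low anxiety D1 neurons 2 of the markers, St18 and Prr5l, were at 0. At the proportion that oligodendrocytes show, that much marker RNA would come with 7.60, 8.46 and 5.89 CPM of Ctnna3 in urolithin A, high anxiety and low anxiety. The measured levels in D1 neurons were 380, 465 and 181 CPM. That reckoning takes stray RNA to keep the oligodendrocyte ratio, and the part of stray RNA was not tested. Ctnna3 UMIs per 100 marker UMIs were 388, 476 and 265 in D1 neurons and 7.76, 8.66 and 8.64 in oligodendrocytes, in the same order of libraries.

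Lrrtm3, nested in Ctnna3, was near level between high anxiety and low anxiety in D1 and D2 neurons, and was higher in high anxiety in the Nmb-Htr4 cluster and eccentric neurons, by less than 1.5-fold. D1 neurons had 787 CPM of Lrrtm3 in urolithin A, 814 CPM in high anxiety and 869 CPM in low anxiety. D2 neurons had 756 CPM, 786 CPM and 801 CPM in that order. The ratio of high anxiety over low anxiety was -0.09 (-0.17 to -0.01) in D1 neurons and -0.03 (-0.10 to 0.05) in D2 neurons, where Ctnna3 had 1.36 and 1.47. The Nmb-Htr4 cluster had 1002 CPM in urolithin A, 1066 CPM in high anxiety and 916 CPM in low anxiety, and the ratio of high anxiety over low anxiety was 0.22 (0.13 to 0.31).
Eccentric neurons had 453 CPM, 562 CPM and 462 CPM in urolithin A, high anxiety and low anxiety, with a ratio of 0.28 (0.15 to 0.41) for high anxiety over low anxiety. That ratio was 0.09 without the cluster mostly of low anxiety nuclei, 0.02 in the largest cluster alone and 0.60 with the clusters mixed equally. For urolithin A over high anxiety the eccentric ratio was -0.31 (-0.46 to -0.17), and -0.82 with the clusters mixed equally. Oligodendrocyte precursors had 608 CPM in urolithin A, 628 CPM in high anxiety and 534 CPM in low anxiety, with a ratio of 0.23 (-0.04 to 0.50). As summed by class, no measured Lrrtm3 value passed 1.5-fold in either contrast.

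The UMIs of the pair are set side by side as a description, since the choice of Ctnna3 fixes the direction between high anxiety and low anxiety. Per 100 Ctnna3 UMIs, D1 neurons had 207 Lrrtm3 UMIs in urolithin A, 175 in high anxiety and 480 in low anxiety. D2 neurons had 215, 169 and 476, and eccentric neurons 222, 172 and 479, in the same order. Precursors had 257, 191 and 490. In oligodendrocytes the balance was the other way about, with 19.5 Lrrtm3 UMIs per 100 of Ctnna3 in urolithin A, 18.8 in high anxiety and 13.9 in low anxiety. Lrrtm3 itself was lowest there in low anxiety, at 404 CPM in urolithin A, 426 CPM in high anxiety and 293 CPM in low anxiety, a ratio of 0.54 (0.37 to 0.71) for high anxiety over low anxiety. That value was 0.24 with a stricter filter on nuclei and 0.27 with doublets kept, each clustered again. Both genes were seen in the same nucleus in 464 of 554 D1 nuclei in urolithin A, 358 of 416 in high anxiety and 281 of 493 in low anxiety.

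**Figure D2:**
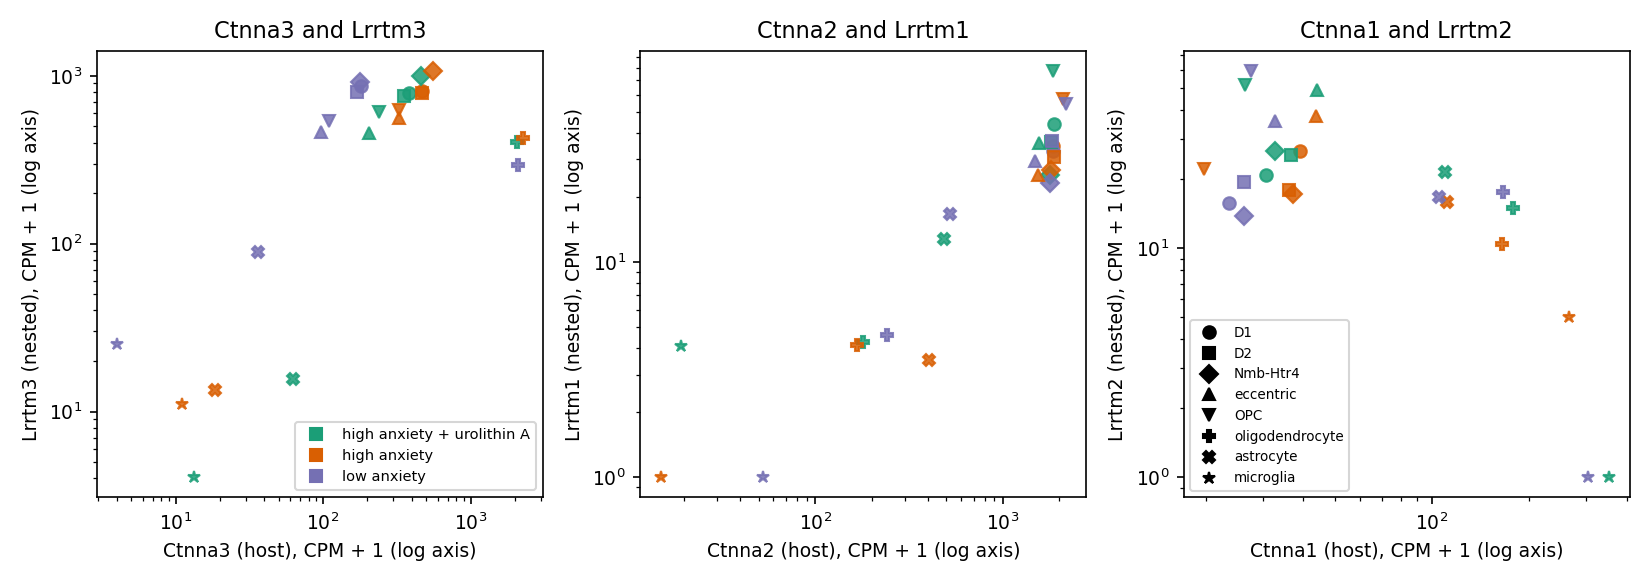
CPM + 1 of each nested gene (vertical, log axis) against its host (horizontal, log axis); shapes are the 8 classes, colours the 3 libraries, and each point is 1 class in 1 library. In the left plot the D1 points sit at like heights (787, 814 and 869 CPM of Lrrtm3 in urolithin A, high anxiety and low anxiety) but apart along the Ctnna3 axis (380, 465 and 181 CPM).

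Genes next to Ctnna3 in RefSeq order were read from the same D1 and D2 sums. Jmjd1c, a histone demethylase family gene on one side, gave -0.08 (-0.25 to 0.09) in D1 neurons and -0.02 (-0.17 to 0.13) in D2 neurons for high anxiety over low anxiety. Herc4, a ubiquitin ligase gene on the other side, gave -0.13 (-0.39 to 0.13) and -0.13 (-0.35 to 0.10). Reep3 gave -0.07 (-0.55 to 0.41) in D1 and -0.51 (-0.95 to -0.07) in D2 neurons. Sirt1, a deacetylase gene, gave 0.73 (0.18 to 1.29) in D1 neurons from 78 and 45 UMIs, and -0.14 (-0.61 to 0.32) in D2 neurons. Of the neighbours with at least 20 UMIs in 1 of the 2 libraries in both classes, the highest ratio was that of Sirt1 in D1 neurons.

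**Figure D3:**
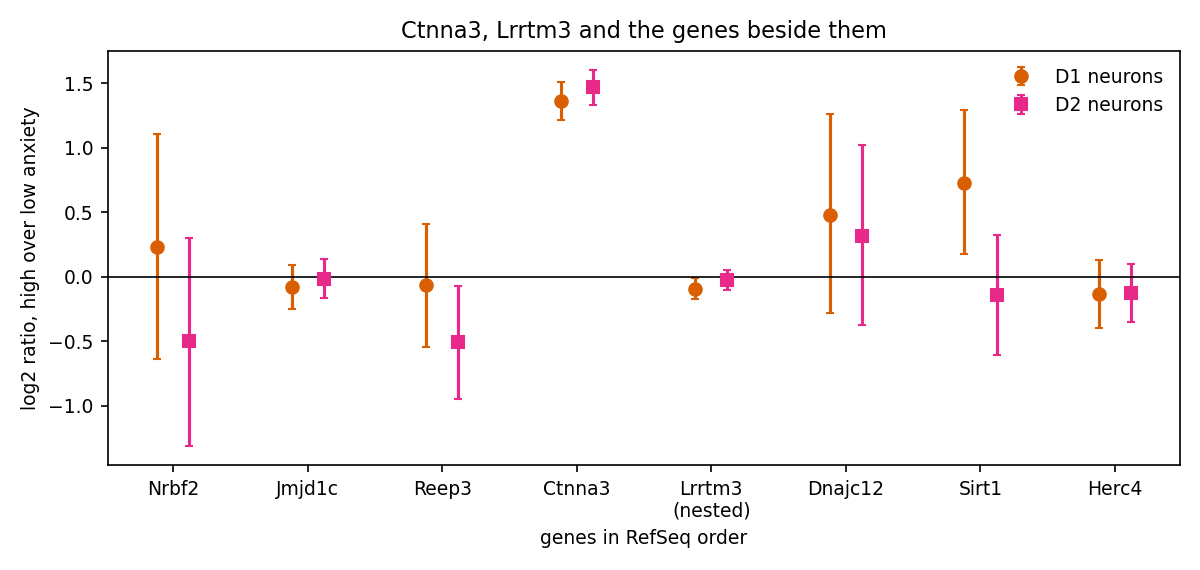
Log2 ratio of high anxiety over low anxiety for Ctnna3, its nested gene Lrrtm3 and the genes beside them in RefSeq order, in D1 and D2 neurons; genes with at least 20 UMIs in 1 of the 2 libraries in both classes are drawn, and bars are 95% intervals for counting error. Ctnna3 stands at 1.36 and 1.47, while Lrrtm3 stands at -0.09 and -0.03.

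Ctnna2, the neuronal alpha-catenin, was level across the libraries in neurons. D1 neurons had 1876 CPM in urolithin A, 1852 CPM in high anxiety and 1857 CPM in low anxiety. D2 neurons had 1815 CPM, 1866 CPM and 1827 CPM in that order. The ratio of high anxiety over low anxiety was 0.00 (-0.06 to 0.05) in D1 neurons and 0.03 (-0.02 to 0.08) in D2 neurons. In D1 and D2 neurons counting error alone left room for at most 0.08 on the log2 scale, and the spread between animals is not covered. Eccentric neurons had 1557 CPM in urolithin A, 1539 CPM in high anxiety and 1477 CPM in low anxiety. Oligodendrocyte precursors had 1844, 2084 and 2177 CPM in that order.

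Glia other than precursors had little Ctnna2. Oligodendrocytes had 180 CPM in urolithin A, 166 CPM in high anxiety and 240 CPM in low anxiety, with a ratio of -0.54 (-0.75 to -0.33) for high anxiety over low anxiety. Astrocytes, which support synapses, had 488, 402 and 525 CPM in that order, with a ratio of -0.38 (-0.67 to -0.10). The oligodendrocyte value depended on the processing, from -1.16 under the stricter filter clustered again to -0.17 with the class clusters mixed equally. Markers of spiny neurons were also lower in high anxiety than in low anxiety there, though not ordered like Ctnna2 between urolithin A and high anxiety: 9 of 9 matched markers were detected in oligodendrocytes, and they summed to 608 CPM in urolithin A, 657 CPM in high anxiety and 764 CPM in low anxiety. In astrocytes the same markers summed to 1432 CPM in urolithin A, 1370 CPM in high anxiety and 1954 CPM in low anxiety. In microglia the same markers summed to 500, 400 and 570 CPM, beside 6, 7 and 17 UMIs of Ctnna2. Their part in these Ctnna2 values was not tested.

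Lrrtm1, nested in Ctnna2, was measured in D1 and D2 neurons only. D1 neurons had 42.9 CPM in urolithin A, 33.7 CPM in high anxiety and 31.9 CPM in low anxiety, from 160, 103 and 93 UMIs. D2 neurons had 35.2, 29.7 and 35.4 CPM in that order. For high anxiety over low anxiety the ratios were 0.08 (-0.34 to 0.50) in D1 and -0.26 (-0.64 to 0.13) in D2 neurons, and for urolithin A over high anxiety 0.35 (-0.02 to 0.72) and 0.25 (-0.13 to 0.63). All 4 intervals included 0. Across the 8 compared classes the gene went with its host: it was highest in precursors, at 76.3, 56.2 and 53.2 CPM in urolithin A, high anxiety and low anxiety, and had 8 or fewer UMIs a library in oligodendrocytes and in astrocytes. The Spearman correlation of Ctnna2 with Lrrtm1 over the means of 8 classes was 0.98, against 0.64 for Ctnna3 with Lrrtm3 and -0.79 for Ctnna1 with Lrrtm2; the 8 points come from the same libraries, and these are descriptions.

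Ctnna1, the epithelial form, was highest in microglia, at 353 CPM in urolithin A, 264 CPM in high anxiety and 303 CPM in low anxiety. Oligodendrocytes followed, with 177, 164 and 165 CPM, then astrocytes with 109, 110 and 104 CPM. The intervals of microglia and oligodendrocytes did not overlap in any library. In D1 neurons Ctnna1 had 29.8 CPM in urolithin A, 38.2 CPM in high anxiety and 22.6 CPM in low anxiety, from 111, 117 and 66 UMIs. The ratio of high anxiety over low anxiety there was 0.76 (0.31 to 1.22), past 1.5-fold, and it was 0.38, within 1.5-fold, as a mean over nuclei. D2 neurons gave 0.48 (0.08 to 0.88). In microglia the ratio of urolithin A over high anxiety was 0.42 (0.04 to 0.79), rank 11 of 856 measured genes, where the median of all genes was -0.05.

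Lrrtm2, nested in Ctnna1, had under 100 UMIs in every one of these classes and libraries and so met the measuring minimum nowhere. D1 neurons had 74 UMIs in urolithin A, 78 in high anxiety and 43 in low anxiety, or 19.8, 25.5 and 14.7 CPM. For high anxiety over low anxiety these gave 0.79 (0.24 to 1.36) in D1 neurons, close to the 0.76 of its host, and Lrrtm2 UMIs per 100 Ctnna1 UMIs were 66.7 in urolithin A, 66.7 in high anxiety and 65.2 in low anxiety. D2 neurons had 87, 65 and 64 UMIs, with a ratio of -0.12 (-0.64 to 0.40), where its host had 0.48. Eccentric neurons had the highest level among the 4 neuron classes, at 48.2, 36.7 and 35.1 CPM in that order. Microglia, where its host was highest, had 0, 2 and 0 UMIs, which for a count of 0 allows up to 9.20 CPM in urolithin A and 9.09 CPM in low anxiety.

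Lrrtm4, the member with no host among the alpha-catenins, was highest in precursors, at 2669 CPM in urolithin A, 2496 CPM in high anxiety and 2884 CPM in low anxiety. D2 neurons had 1425, 1440 and 1512 CPM in that order and D1 neurons 1037, 1108 and 1079 CPM, so D2 neurons stood above D1 neurons in all 3 libraries. The ratio of high anxiety over low anxiety was 0.04 (-0.03 to 0.11) in D1 neurons. In D2 neurons it was -0.07 (-0.12 to -0.02). Eccentric neurons had 852 CPM in urolithin A, 1154 CPM in high anxiety and 822 CPM in low anxiety. The ratios there were 0.49 (0.40 to 0.58) for high anxiety over low anxiety and -0.44 (-0.54 to -0.34) for urolithin A over high anxiety. With the stricter filter and the same labels they were 0.14 and -0.07. Oligodendrocytes had 34 UMIs in urolithin A, 44 in high anxiety and 73 in low anxiety, beside the spiny neuron markers given above.

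**Figure D4:**
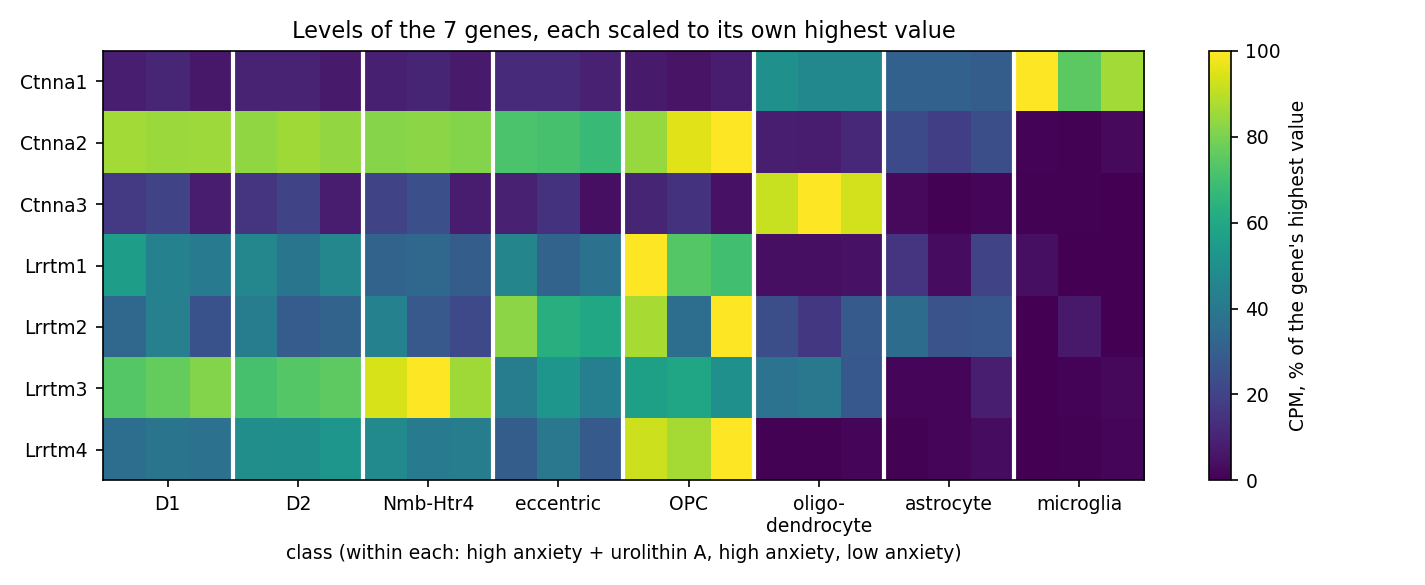
CPM of the 7 genes in 8 classes, each gene scaled to its own highest value, so that colours compare classes and libraries of 1 gene and not genes; each class holds 3 columns, urolithin A, high anxiety and low anxiety. Ctnna3 peaks in oligodendrocytes, Ctnna1 in microglia, and Lrrtm4 and Lrrtm1 in oligodendrocyte precursors.

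Counted over the 7 genes and 8 classes, 30 values were measured in each contrast, meaning at least 100 UMIs in 1 of the 2 libraries. For high anxiety over low anxiety 6 of 30 passed 1.5-fold, all higher (a log2 ratio beyond 0.58): Ctnna3 in D1, D2 and eccentric neurons, the Nmb-Htr4 cluster and precursors, and Ctnna1 in D1 neurons. Of all measured genes, 4.45% passed 1.5-fold either way in D1 neurons, 4.28% in D2 neurons, 5.3% in the Nmb-Htr4 cluster, 5.27% in eccentric neurons, 5.8% in precursors, 3.8% in oligodendrocytes, 9.16% in astrocytes and 7.79% in microglia. As this contrast chose Ctnna3, nothing is read from its share. For urolithin A over high anxiety 1 of 30 passed, Ctnna3 in eccentric neurons, beside 1.44% of all genes in D1 neurons, 2.41% in D2 neurons, 2.9% in the Nmb-Htr4 cluster, 2.06% in eccentric neurons, 3.49% in precursors, 0.908% in oligodendrocytes, 4.67% in astrocytes and 2.69% in microglia. A share of 1 in 30 is near that background. The values closest to the 1.5-fold line were -0.68 for Ctnna3 in eccentric neurons (urolithin A over high anxiety) outside it, and 0.54 for Lrrtm3 and -0.54 for Ctnna2 in oligodendrocytes (high anxiety over low anxiety) inside it.

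**Figure D5:**
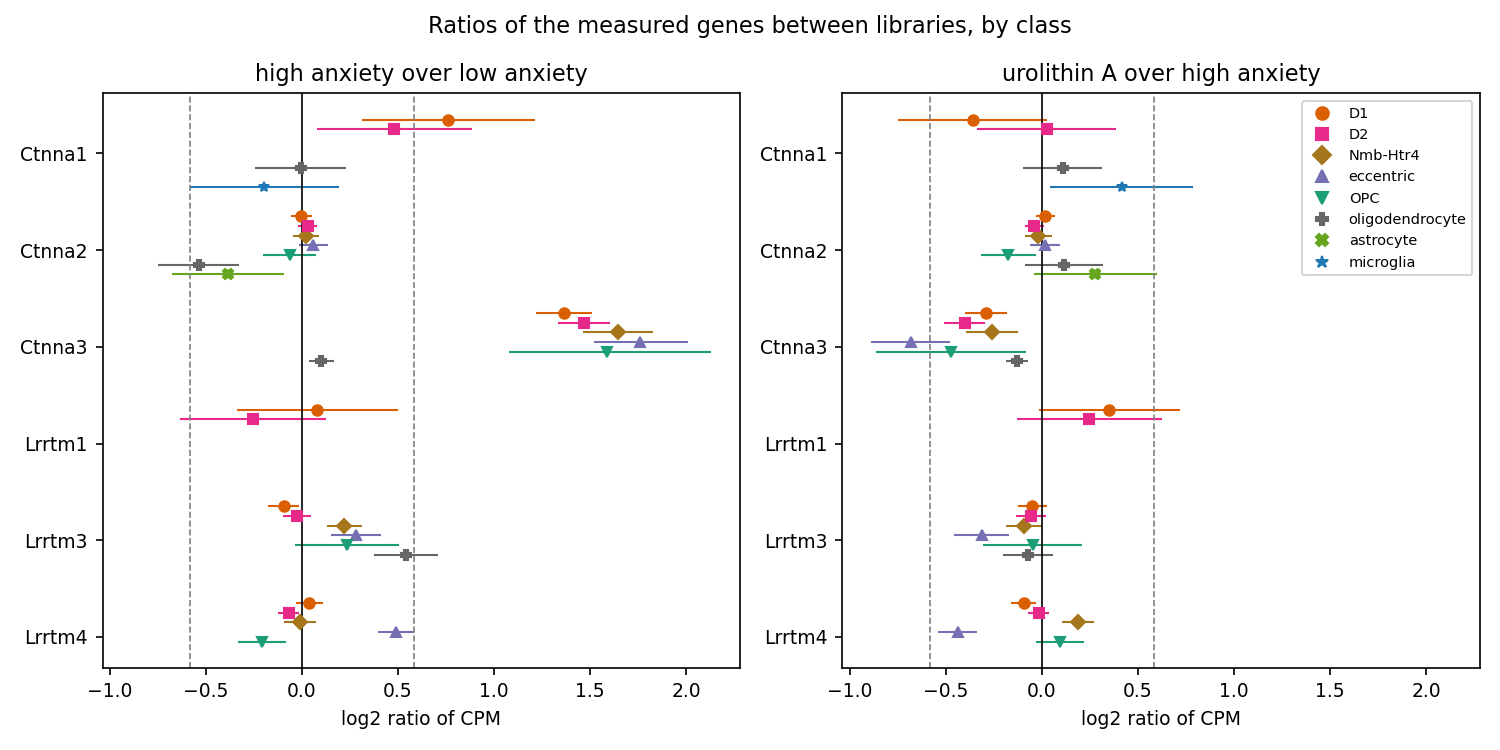
Log2 ratios of CPM for high anxiety over low anxiety (left) and urolithin A over high anxiety (right), for each gene with at least 100 UMIs in 1 of the 2 libraries; shapes and colours are classes, bars are 95% intervals for counting error and dashed lines mark 1.5-fold. On the left 5 of the 6 Ctnna3 points lie beyond the dashed line, with oligodendrocytes at 0.10.

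Classical cadherins bind the catenins at the junction. Of 19 listed cadherins, 12 were measured in D1 neurons. For high anxiety over low anxiety 0 passed 1.5-fold, with a median log2 ratio of 0.04, against 0.01 for all genes. In D2 neurons it was 0 of 12 with a median of 0.08, against 0.00, and in the Nmb-Htr4 cluster 0 of 11 with a median of 0.16, against 0.00. In eccentric neurons 2 of 11 passed, both higher, beside 5.27% of all genes that passed either way, and the median was 0.28, against 0.01 for all genes. These were Cdh13, a cadherin anchored by a lipid tail, at 112 CPM in high anxiety and 74.2 CPM in low anxiety, and Cdh22, at 99.6 CPM and 65.8 CPM. The eccentric class held the cluster mostly of low anxiety nuclei, and these cadherin values were not recomputed without it. For urolithin A over high anxiety, 1 of 11 passed in eccentric neurons, beside 2.06% of all genes either way. This was Cdh6, which was lower, at 14.1 CPM in urolithin A and 47.7 CPM in high anxiety, from 19 and 100 UMIs. Cdh6 met the minimum of 100 UMIs only through high anxiety, where it was high, so nothing is read from its direction. The value was not recomputed by cluster. Of 20 other catenins and junction adaptors (beta-catenin, plakophilins, vinculin and others), 19 were matched in the tables. Of these 10 were measured in D1, 11 in D2 and 9 in eccentric neurons, and 0 passed there in either contrast. Medians for high anxiety over low anxiety were -0.04, 0.04 and -0.01. In astrocytes 1 of 5 passed for urolithin A over high anxiety, beside 4.67% of all genes either way. This was Vcl, the vinculin gene, at 421 CPM in urolithin A and 270 CPM in high anxiety, from 143 and 108 UMIs.

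The partners of the Lrrtm proteins, 13 neurexins, glypicans and syndecans, had 7 measured in D1 and in D2 neurons and 6 in eccentric neurons, and 0 of these passed in either contrast. Outside the neurons 1 of 3 passed in oligodendrocytes for high anxiety over low anxiety, beside 3.8% of all genes either way. This was Nrxn3, a neurexin gene, which was lower, at 83.0 CPM in high anxiety and 178 CPM in low anxiety. The spiny neuron markers given above were also lower in high anxiety there, and their part in this value was not tested. The medians of the list in D1, D2 and eccentric neurons for high anxiety over low anxiety were -0.08, -0.01 and 0.01. Of 24 other leucine-rich repeat adhesion genes, 12 were measured in D1 neurons with 0 past 1.5-fold and a median of 0.12, against 0.01 for all genes. Past 1.5-fold were 1 of 13 in D2 neurons, 1 of 11 in the Nmb-Htr4 cluster and 1 of 11 in eccentric neurons. Of all genes, 4.28%, 5.3% and 5.27% passed either way in these classes. In precursors 1 of 5 was higher and 1 lower, and in oligodendrocytes 1 of 4 was higher, beside 5.8% and 3.8% of all genes. Lrfn1, a synaptic adhesion gene that binds the scaffold PSD-95, was higher in D2 neurons, at 30.4 CPM in high anxiety and 20.0 CPM in low anxiety. Flrt1 was higher in the Nmb-Htr4 cluster, at 207 CPM in high anxiety and 136 CPM in low anxiety. Neither gene was particular to neurons. Flrt1 was also higher in precursors, at 490 CPM in high anxiety and 237 CPM in low anxiety, and Lrfn1 in oligodendrocytes, at 40.7 CPM and 15.1 CPM. Lrfn5 was lower in eccentric neurons, at 190 CPM in high anxiety and 315 CPM in low anxiety. That value was not recomputed without the cluster mostly of low anxiety nuclei.

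Some genes had levels like those of a member over the 24 class and library values. Pearson correlations of log2(CPM + 1) are given as descriptions, since the values share libraries and classes. Those closest to Ctnna3 were Zfhx2 (0.97), Mical3 (0.95) and Ttll7 (0.95). Those closest to Lrrtm3 were Anks1b, Nalcn and Il1rapl1 (0.97 to 0.98), and to Lrrtm4 Slitrk5, Brinp1 and Gria3 (0.98 to 0.99). Ctnna2 was closest to Csmd1 (0.99), Pclo (0.98) and Fam110b (0.97), Lrrtm1 to Usp13, Vat1l and Nkain3 (0.95 to 0.96), and Ctnna1 to Pla2g4a (0.97), Tspan14 (0.96) and Arid1a (0.94). Neither Lrrtm1 nor Lrrtm3 was among the 3 closest to its host. Lrrtm2 had under 100 UMIs in every class and library compared, so it was not among the genes searched.

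Ctnna3 could not be followed in all 8 classes, since microglia and astrocytes had too few of its UMIs, but other genes could. For high anxiety over low anxiety, 195 genes were measured in all 8 classes, and 17 of them had a ratio above 0 in every class. In every class 0 were at least 1.5-fold higher, and 1 was at least 1.5-fold lower. The last was Psap, the gene of the lysosomal protein prosaposin, named after its values were seen (-0.82 to -0.59). The 5 with the highest lowest ratio were RT1-T24-3, a gene of the rat major histocompatibility complex (0.46 to 1.37), Sdccag8 (0.32 to 1.31), Mycbp2 (0.24 to 0.60), Csnk1a1 (0.24 to 0.59) and Pnisr (0.16 to 0.47).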

How the data were processed

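The deposited matrices hold UMI counts per gene and barcode, not normalized. The file headers name Cell Ranger 7.1.0 as the software behind these deposited counts, and the submitters' processing notes name rat build mRatBN7.2. The sources used here do not give whether introns were counted, whether strand was used or whether free RNA was taken out, and host and nested genes share their locus. A nucleus was used with 500 or more detected genes and a mitochondrial share no higher than 5% (3520 of 3739 for urolithin A, 3810 of 4066 for high anxiety, 3476 of 3619 for low anxiety). Doublets were scored with Scrublet in scanpy 1.11.5 and the highest 0.8% per 1000 nuclei removed (99, 116 and 97 nuclei). From 2000 variable genes without the 7 members, 30 components and 15 neighbours, Leiden clustering (leidenalg 0.10.2, resolution 1, seed 7) gave 25 clusters. A cluster was named from 18 marker lists where at least 3 markers were 2-fold higher than elsewhere with at least 20 UMIs and 10 CPM. It stayed unnamed where markers of another class led. The names rest on these rebuilt clusters. The sum of oligodendrocyte markers leaves out 1 gene of the naming list, which is not reported here.

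Counts were summed per class and library and given as CPM with exact Poisson intervals. Ratios have exact conditional (Clopper-Pearson) intervals and shares exact binomial ones, all at 95%. They cover counting error only, and a count of 0 is given the limit of 3 counts. Each group is 1 library, so nothing was tested and no p-value is given. A value was measured with at least 100 UMIs in 1 of 2 libraries and counted past 1.5-fold. The ratio and its interval were tested on simulated data. The medians of all log2 ratios lay within 0.05 of 0 except in microglia, at 0.11 for high anxiety over low anxiety. Sequences are from RefSeq, build GRCr8. The genes named are the 7 members, the 3 genes most like each but Lrrtm2, and the 5 with the highest lowest ratio. List members past 1.5-fold in a neuron class are named too, at most 4 a list. Nrxn3 and Vcl passed in glia only and were named after their values were seen. The genes beside Ctnna3 were named for their place. The members, lists and tests were chosen with earlier results of these data known. Alternatives tried are in the closing section. Other tools were python 3.11.15, numpy 2.4.6, scipy 1.17.1, pandas 2.3.3, igraph 0.11.9 and matplotlib 3.10.9.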

Additional observations from a re-analysis of the deposited data

How the results depend on the processing

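With 1 library per group, no replicate could be left out. No paired analysis was possible because each group holds 1 library and the labels give no replicate numbers. Each ratio was recomputed under 8 alternatives and 2 more chosen after seeing the data (the stricter nucleus filter with the class labels kept, and eccentric neurons without the cluster mostly of low anxiety nuclei). No ratio past 1.5-fold changed sign, and Ctnna3 stayed inside its main interval in 99 of 106 recomputed values. For high anxiety over low anxiety the other Ctnna3 values were 1.38 in the Nmb-Htr4 cluster and 0.36 in oligodendrocytes under the stricter filter clustered again, 2.02 in eccentric neurons as a mean over nuclei, and 1.44 in eccentric neurons and 0.20 in oligodendrocytes under the stricter filter with labels kept. For urolithin A over high anxiety they were -0.056 in oligodendrocytes under the stricter filter clustered again and -0.11 in the Nmb-Htr4 cluster with labels kept. The cause was not tested. The stricter filter clustered again gave no value for eccentric neurons, precursors and microglia, of whose labelled nuclei that filter left 95, 64 and 51 in the smallest library. Of the ratios of the other genes, 386 stayed inside their main interval and 38 did not. Allowing the members among the variable genes changed nothing, as 0 were chosen. The largest cluster alone and the equal mix of clusters also returned the main ratio wherever a class was 1 cluster. These classes were D1 neurons, the Nmb-Htr4 cluster, precursors, astrocytes and microglia. Such values could not move, and they are among those counted as staying inside their interval.

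The number of member values past the fold rule followed the rule itself. For high anxiety over low anxiety it was 6 of 30, 4 of 24 with a minimum of 200 UMIs, 19 of 55 with no minimum and 11 of 30 with the line at a log2 ratio of 0.32. For urolithin A over high anxiety it was 1 of 30, 1 of 23, 10 of 56 and 7 of 30. Over all genes and classes the counts for high anxiety over low anxiety were 1379 of 28279, 559 of 15868 with the minimum of 200 UMIs, 45599 of 118567 with no minimum and 5713 of 28279 with the line at 0.32. For urolithin A over high anxiety they were 588 of 28405, 219 of 16258, 41901 of 118476 and 4075 of 28405. The difference in the share of D1 nuclei with a Ctnna3 UMI, high anxiety minus low anxiety, was 29.2 percentage points at 1500 UMIs, 15.7 at 1000 and 30.5 unthinned. Depth limits Lrrtm1 and Lrrtm2 most, and no value can be set against the spread between animals.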

Other observations

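Classes with under 100 nuclei in a library were left out of the comparisons. Among them, glutamatergic neurons had 171 CPM of Ctnna3 in urolithin A, 365 CPM in high anxiety and 54.6 CPM in low anxiety. These came from 21, 198 and 99 nuclei and 46, 901 and 70 UMIs in that order. Their 2 clusters gave log2 ratios of high anxiety over low anxiety of 2.75 (2.26 to 3.28) and 2.80 (2.29 to 3.35). GABAergic interneurons had 145 CPM in urolithin A, 131 CPM in high anxiety and 97.7 CPM in low anxiety, from 139, 114 and 82 nuclei. The unnamed cluster led by Itgb6 and Grpr had 362, 348 and 105 CPM in that order, and the unnamed cluster led by Spp1, Crh and Galr1 had 202, 259 and 117 CPM.

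Cholinergic interneurons, a rare and large class of 26, 18 and 15 nuclei, had the highest Ctnna2 of any class, at 4318 CPM in urolithin A, 4470 CPM in high anxiety and 3745 CPM in low anxiety. Lrrtm4 was higher in the cluster led by Spp1, Crh and Galr1, at 3403, 2846 and 3239 CPM in that order, than in any of the compared classes of the same library. Lrrtm1 did not follow its host to the cholinergic interneurons. Its mean over the libraries there was 26.1 CPM, from 18 UMIs, against 36.1 CPM in D1 neurons.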
